A study of Mus musculus with 65 samples.

Results

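Of the 15020 gene symbols in the PRO-seq gene tables, 284 were noncoding Rik genes with a mean of at least 50 normalized counts, and these are described here. A Rik symbol is a placeholder given to mouse transcripts first read in the RIKEN full-length cDNA collection and never renamed. The genes were chosen by their symbol ending in Rik, a noncoding RefSeq accession, and the mean over the 28 libraries of the A485 series for the transcript with the highest mean of each symbol. That mean is the only measured value used in the choice. A further 273 noncoding Rik symbols lay under the minimum. For 16 members the tables also list a coding transcript of the same symbol, with the same mean in 14 of them, so those values cannot be told apart from the values of a coding transcript. The members just inside it were 4930528D03Rik (53.8), 4833417C18Rik (53.5), 1700022H01Rik (52.8), 1810009A15Rik (50.3) and 9130221H12Rik (50.2), and the symbols just outside it were 1700072B07Rik (48.2), 1700023D09Rik (48.1), 5033403F01Rik (46.8), C630004L07Rik (46.1) and 1700031M16Rik (46.0).

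Long noncoding RNAs are transcribed by RNA polymerase II, often capped and spliced like messenger RNAs, but carry no long conserved reading frame. Many begin beside the start of a coding gene and run away from it, others overlap a coding gene on the opposite strand, and some serve as host genes that release a microRNA or a small nucleolar RNA (snoRNA) from their introns. Because PRO-seq labels the RNA that engaged polymerases are making in isolated nuclei, it measures the transcription of such genes even when the finished RNA is short-lived. Mtg16 (gene Cbfa2t3) is a corepressor of blood cells that works with histone deacetylases and is brought to DNA by partners such as Tal1, E proteins and Gata1. The acetyltransferases p300 and CBP, by contrast, are coactivators that acetylate histones at enhancers and promoters.

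All 65 libraries came from MEL cells, a murine erythroleukemia line, that carry Mtg16 fused to an FKBP degradation tag and 2 copies of the HA tag (Mtg16-FKBP-2XHA), in the DMSO controls too. The agents were 250 nM dTAGV1, which marks FKBP-tagged proteins for destruction (the degrader, below), A485 at 10 µM, which blocks the acetyltransferase activity of p300 and CBP, and LBH589 (panobinostat) at 5 nM, which blocks histone deacetylases. In the A485 series, cells received degrader, A485 or both during 15 min, 30 min or 1 h (3 libraries each, but 2 for A485 and for both at 30 min), beside 3 DMSO libraries. In the time course they received degrader during 15 min, 30 min or 1 h, with 3 libraries for each time, or during 2 h with 2 libraries, and some were then washed free of it for 30 min (2 usable gene columns), 1 h (1) and 2 h (2), and 3 DMSO libraries. The LBH589 series held 30 min and 1 h of LBH589 and DMSO (3 libraries each), and the LBH589 washout series compared 1 h with 30 min of washout, following a 2 h exposure to degrader, with LBH589 present (3 libraries each). Nothing in the labels says that libraries of a group came from separate cultures, so p-values measure the spread between libraries, which may be technical. The line is not said to be 1 clone or several.

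Depth ran from 7.45 to 62.4 (in units of 1000000 recovered reads) per library in the gene tables, and the 284 genes took 0.691% to 0.903% of the reads of a library. For 5 libraries of the time course (degrader 1 h and 2 h), the title names A485 while the library name says dTAGV1. They are used as the library name gives them and called the libraries labelled degrader 1 h and 2 h. A pair of time course libraries stood apart from their groups: degrader 15 min number 2 and degrader 30 min number 3 had mean correlations of -0.359 and -0.224 with the other libraries of their groups, in deviations from the mean of all libraries, against 0.631 to 0.688 among DMSO libraries. In the A485 series, A485 and both agents at 30 min and 1 h carry the numbers 1 to 3 while DMSO and degrader carry 4 to 6, and in the LBH589 series LBH589 carries 1 to 3 and DMSO 7 to 9. If these numbers mark separate preparations, preparation and treatment cannot be told apart there. Of the erythroid markers, 8 of 10 were listed, all of them above the minimum for testing, with sums of 2573 to 14937 normalized counts over the libraries of the A485 series, against sums of 130.0 to 248 for myeloid markers (2 of 5 listed), 105 to 222 for lymphoid markers (2 of 4 listed), and no fibroblast marker listed of 3.

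The mean of the 284 genes, the value that chose them, is given as a description. Their median of the means was 185 normalized counts in the A485 series, against 655 over the 11178 symbols that passed the same minimum. There were 220 members with a mean of at least 100, 67 with at least 500 and 27 with at least 1000. D230017M19Rik (6324), F630206G17Rik (5011), 5031425E22Rik (4813), C920021L13Rik (3669) and A930007I19Rik (2346) led the list, followed by 4930581F22Rik (1975), 6330549D23Rik (1728), B230217O12Rik (1633), E130307A14Rik (1618) and 4732471J01Rik (1574). Counts grow with the length of a gene, so this order is not an order of polymerase density. Per kilobase of gene span, D230017M19Rik had a mean of 205 and E130307A14Rik, of similar rank to 4732471J01Rik by count, 14.6 against 8.30 for 4732471J01Rik.

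RefSeq annotation (GRCm38.p6, another build than the mm39 the submitters name, and used for names and neighbours only) matched 283 of the 284 by accession. It lists 261 as lncRNA, 16 as protein_coding, 5 as transcribed_pseudogene and 1 as misc_RNA. Gene spans ran from 1523 to 425389 bp with a median of 10949 bp, on 20 chromosomes. By position, 79 members were divergent: their start lay near that of a gene on the opposite strand. The starts lay within 1000 bp of each other, on either side, and any overlap of the genes was at most 1000 bp. The gene on the opposite strand is called the partner, and where its start lies downstream of the member's start the pair overlaps. Another 48 overlapped a gene on the opposite strand, 6 overlapped one on the same strand, and 101 stood apart from other genes of the tables. The 48 include pairs with starts as near as those of divergent pairs but a longer overlap. The remaining 50 had no promoter entry and were not classified. D230017M19Rik lies antisense to Pecr, a peroxisomal enoyl reductase, whose own mean was 592, and A930007I19Rik is divergent to Ric1 (mean 7658). How strand was used in counting is not given in the sources used here, so reads of a member and of a gene on the other strand of the same place cannot be told apart, and the same holds for the small RNA genes inside members. For the 6 members that overlap a gene on the same strand, shared reads cannot be told apart under any strand setting.

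All comparisons used limma on log2(value + 1) over every gene with a mean of at least 10, with Benjamini-Hochberg adjustment over all genes tested and a threshold of 0.05 (called, below). All log2 changes are on that scale, which understates changes of low genes. Every member passed this filter in the time course, the A485 series and the LBH589 series, and 283 of 284 in the LBH589 washout series. Over 13 comparisons, 276 members (97.2%) were called at least once, against 96.3% of the 12117 genes tested in all of them, and 17 members (5.99%) in at least 8, against 10.7%. The gene called most often, in 12 of 13, was 2310001H17Rik.

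**Figure D1:**
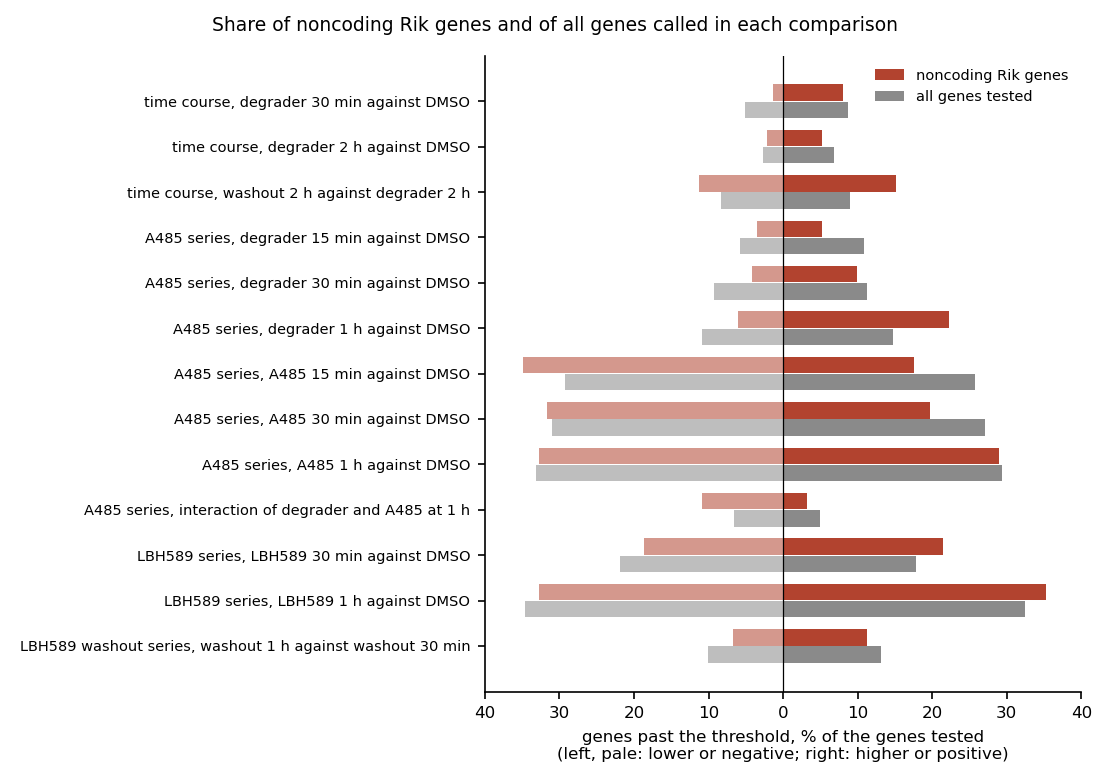
Share of genes called in each comparison, in percent of the genes tested, with higher or positive calls to the right of 0 and lower or negative calls to the left in pale colour; red bars are the 284 noncoding Rik genes (283 in the LBH589 washout series) and grey bars all genes tested. At 1 h of degrader in the A485 series the red bar reaches 22.2% on the right and the grey bar 14.7%, while on the left they reach 5.99% and 10.9%.

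In the A485 series, degrader treatment for 1 h raised more noncoding Rik genes than it lowered. The time course libraries labelled degrader 1 h were not tested against DMSO. The degrader acts on the Mtg16 protein, so no transcript level in these tables checks its loss. In the A485 series, 63 of 284 members were higher and 17 lower than in DMSO, against 14.7% of all genes higher and 10.9% lower. The median log2 change of the members was 0.12, against -0.00 for all genes tested, and 185 of 284 members had a change above 0. At 15 min the members called were 15 higher and 10 lower (all genes 10.9% higher and 5.8% lower), and at 30 min 28 higher and 12 lower (all genes 11.3% and 9.23%), with member medians of 0.04 and 0.05. Without the 16 members that have a coding transcript, 60 were higher and 17 lower at 1 h. So at 15 min the share of members called lay below that of all genes in both directions, while at 1 h it lay above it for higher calls and below it for lower calls. These shares have no test of their own. Leaving out DMSO library 4 took the members called to 52 at 1 h and 22 at 30 min, and leaving out DMSO library 5 took them to 16 at 15 min.

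1700026D11Rik, an uncharacterised lncRNA gene on chromosome 2 that stands apart from other genes, had the largest change. It had 158, 172 and 129 normalized counts at 15 min of degrader, 195, 186 and 224 at 30 min and 282, 255 and 247 at 1 h, against 62.4, 63.9 and 66.7 in DMSO. Every degrader library lay above every DMSO library. The 1 h mean was 261 ± 17.98 with degrader and 64.3 ± 2.22 with DMSO (SD, n = 3 each; log2 change 2.00 ± 0.16 (SE), adjusted p = 8.31e-12, limma). The same gene had, in the time course, 177, 174 and 170.1 at 30 min and 180.0 and 164 in the libraries labelled degrader 2 h, against 104, 58.9 and 45.3 in DMSO. It was called there too, at 30 min (log2 change 1.40 ± 0.25 (SE), adjusted p = 0.0012) and at 2 h (log2 change 1.38 ± 0.28 (SE), adjusted p = 0.00384). Without library 1 of degrader 2 h, the adjusted p at 2 h was 0.0588.

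A730036I17Rik, also an lncRNA gene on chromosome 2, had a mean of 568 normalized counts over the A485 series. It had 1245, 1318 and 1245 normalized counts at 1 h of degrader, against 561, 588 and 630.5 in DMSO. The difference was 1.10 ± 0.14 on the log2 scale (SE), with 0.73 ± 0.14 at 15 min and 0.92 ± 0.14 at 30 min. Much of the change was therefore present at the first time measured. In the time course it had 1484, 1411 and 1357 at 15 min, 1506, 1517 and 1381 at 30 min, 1689, 1682 and 1626 at 1 h and 1477 and 1409 at 2 h of degrader, against 701, 605 and 622 in DMSO, and 1063 and 1124 after 2 h of washout. The 2 h washout value was lower than at degrader 2 h (log2 change -0.40 ± 0.08 (SE), adjusted p = 0.00538) and above every DMSO library.

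Along with these 2 genes, 6 others were higher in all of degrader 1 h of the A485 series and degrader 30 min and 2 h of the time course: 4933431E20Rik, 2010016I18Rik, A230108P19Rik, 6530411M01Rik, E230016M11Rik and 2310001H17Rik. No member was lower in all 3. The pair of time course comparisons share DMSO libraries with each other but not with the A485 series. After 1 h of treatment in the A485 series, 4933431E20Rik had 445, 498 and 528 with degrader against 247, 212 and 256 with DMSO (log2 change 1.04 ± 0.12 (SE), adjusted p = 2.44e-08), and A230108P19Rik had 1157, 1225 and 1157 against 549, 699 and 676 (log2 change 0.88 ± 0.09 (SE), adjusted p = 6.1e-09). E230016M11Rik had 996, 1126 and 1073 with degrader against 655, 633 and 665 with DMSO (log2 change 0.71 ± 0.11 (SE), adjusted p = 1.15e-05), and 2310001H17Rik had 919, 746 and 745 against 537, 534 and 641 (log2 change 0.49 ± 0.11 (SE), adjusted p = 0.000649). In none of these did degrader and DMSO libraries overlap. The lower pair, 2010016I18Rik and 6530411M01Rik, changed by 1.02 ± 0.22 and 0.78 ± 0.21 on the log2 scale (SE). In the time course at 30 min and 2 h, the log2 changes of the 6 ran from 0.68 (4933431E20Rik) to 1.30 (6530411M01Rik) and from 0.72 (E230016M11Rik) to 1.15 (4933431E20Rik). Without library 1 of degrader 2 h, the adjusted p at 2 h was 0.0526 for 2010016I18Rik and 0.206 for 6530411M01Rik, which was also lost without library 2 of degrader 2 h (0.209), without DMSO library 2 (0.123) and with no filter on low values (0.0519).

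**Figure D2:**
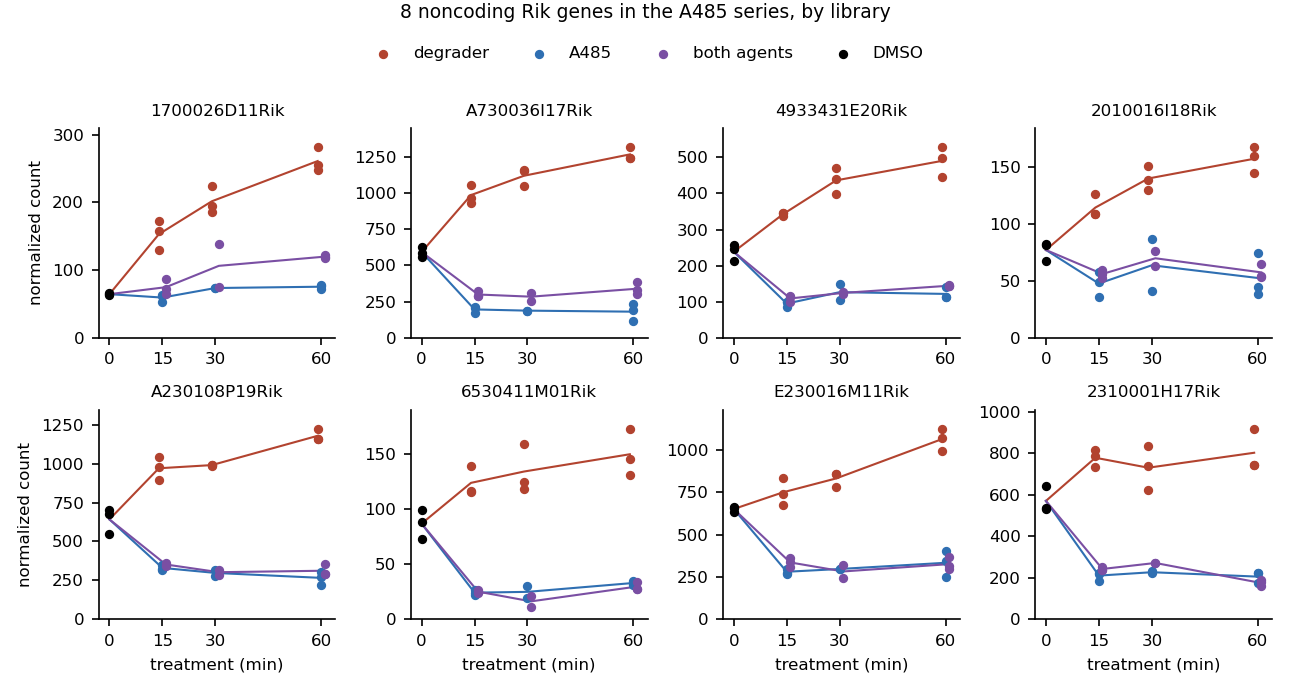
Normalized counts of the 8 genes in each library of the A485 series (points) by minutes of treatment, with lines through group means from the DMSO libraries at 0 min; red is degrader, blue A485, purple both agents and black DMSO. At 60 min every degrader library lies above every DMSO library in each panel; A485 libraries lie below all DMSO libraries in 6 panels, overlap them for 2010016I18Rik after 15 min, and lie near them for 1700026D11Rik.

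Where 3 of these 8 have an annotated neighbour on the opposite strand, member and neighbour did not always move alike. E230016M11Rik is divergent to Gadd45a, a stress-response gene of the growth arrest family. Their annotated spans overlap, as do those of 4933431E20Rik and its partner below. Gadd45a changed in the time course by 1.58 ± 0.11 on the log2 scale (SE) at 30 min and 1.48 ± 0.12 at 2 h of degrader, beside 1.01 ± 0.10 and 0.72 ± 0.11 for the member. At 1 h in the A485 series, Gadd45a was at 0.16 ± 0.14 (SE), adjusted p = 0.427, while E230016M11Rik was called. The pair thus moved together in one experiment and only the member passed the test in the other at 1 h. 2010016I18Rik overlaps Dennd2d, an exchange factor for Rab proteins, which changed by 0.44 ± 0.07 (SE), adjusted p = 9.75e-06 at 1 h of degrader in the A485 series. 4933431E20Rik is divergent to Gstm5, a glutathione transferase, which was at 0.39 ± 0.36 (SE), adjusted p = 0.462 there, beside 1.04 ± 0.12 for the member. None of these differences between a member and its neighbour was tested.

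The promoters of 7 of the 8 are printed because these genes were higher in all 3 degrader comparisons and Mtg16 is brought to DNA by Gata1 and E protein complexes; 2310001H17Rik, which has 2 windows, is left out. Each is the RefSeq window from 250 bases before to 50 after the annotated start in GRCm38.p6, 5′ to 3′ on the strand of the gene. Capitals mark GATA motifs (AGATAA or AGATAG or TGATAA or TGATAG) and E-boxes of the kinds CAGCTG and CAGATG, on either strand. The windows are those of 1700026D11Rik (chr2:132490478-132490777, plus strand), A730036I17Rik (chr2:129218719-129219018, plus strand), 4933431E20Rik (chr3:107896164-107896463, minus strand), 2010016I18Rik (chr3:106485864-106486163, minus strand), E230016M11Rik (chr6:67036349-67036648, plus strand), A230108P19Rik (chr2:6193001-6193300, plus strand) and 6530411M01Rik (chr17:9167973-9168272, minus strand).
1700026D11Rik: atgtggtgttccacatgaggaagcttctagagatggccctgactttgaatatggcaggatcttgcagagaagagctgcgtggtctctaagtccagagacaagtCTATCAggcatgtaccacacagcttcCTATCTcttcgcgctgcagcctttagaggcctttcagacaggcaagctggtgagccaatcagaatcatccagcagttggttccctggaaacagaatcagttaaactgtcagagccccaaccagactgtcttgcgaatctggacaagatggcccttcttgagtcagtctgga
A730036I17Rik: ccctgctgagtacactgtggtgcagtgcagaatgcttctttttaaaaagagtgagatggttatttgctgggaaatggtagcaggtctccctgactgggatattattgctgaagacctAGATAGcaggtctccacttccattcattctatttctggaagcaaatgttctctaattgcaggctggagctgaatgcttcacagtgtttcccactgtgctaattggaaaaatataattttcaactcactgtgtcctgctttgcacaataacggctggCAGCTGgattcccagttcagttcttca
4933431E20Rik: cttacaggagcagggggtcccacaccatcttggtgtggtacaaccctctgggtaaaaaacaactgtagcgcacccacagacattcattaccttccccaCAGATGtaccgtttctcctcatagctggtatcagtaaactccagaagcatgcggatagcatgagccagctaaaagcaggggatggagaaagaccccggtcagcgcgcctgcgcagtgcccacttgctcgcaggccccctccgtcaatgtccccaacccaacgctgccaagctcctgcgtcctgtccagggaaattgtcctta
2010016I18Rik: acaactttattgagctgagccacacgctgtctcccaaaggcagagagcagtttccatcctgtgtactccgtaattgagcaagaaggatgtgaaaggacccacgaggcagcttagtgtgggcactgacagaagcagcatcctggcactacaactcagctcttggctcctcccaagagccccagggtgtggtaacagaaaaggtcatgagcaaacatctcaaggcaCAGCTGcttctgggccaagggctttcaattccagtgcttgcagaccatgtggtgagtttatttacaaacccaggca
E230016M11Rik: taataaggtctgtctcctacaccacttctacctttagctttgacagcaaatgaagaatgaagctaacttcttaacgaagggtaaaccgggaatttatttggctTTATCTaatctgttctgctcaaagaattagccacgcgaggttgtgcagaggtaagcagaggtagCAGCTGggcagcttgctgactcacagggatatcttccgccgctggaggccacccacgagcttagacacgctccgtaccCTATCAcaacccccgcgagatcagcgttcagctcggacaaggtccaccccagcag
A230108P19Rik: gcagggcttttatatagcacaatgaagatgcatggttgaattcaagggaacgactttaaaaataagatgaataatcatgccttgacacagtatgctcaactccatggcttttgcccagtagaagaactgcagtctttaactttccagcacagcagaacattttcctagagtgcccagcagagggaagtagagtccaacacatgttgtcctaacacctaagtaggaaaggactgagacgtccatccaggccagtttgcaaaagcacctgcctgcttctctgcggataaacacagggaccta
6530411M01Rik: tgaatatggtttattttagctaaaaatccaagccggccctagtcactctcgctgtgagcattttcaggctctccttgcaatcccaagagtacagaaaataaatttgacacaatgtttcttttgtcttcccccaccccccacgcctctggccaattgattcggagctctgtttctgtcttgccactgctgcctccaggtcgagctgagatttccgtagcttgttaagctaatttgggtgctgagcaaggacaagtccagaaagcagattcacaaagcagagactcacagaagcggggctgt
Among the 9 windows of the 8 genes, those of 1700026D11Rik and E230016M11Rik hold 2 GATA matches each, that of A730036I17Rik holds 1 GATA match and a CAGCTG E-box, E230016M11Rik also holds a CAGCTG E-box, and 2010016I18Rik and 4933431E20Rik hold 1 E-box each and no GATA match. The windows of A230108P19Rik and 6530411M01Rik hold neither, and those of 2310001H17Rik hold 1 GATA match and 1 E-box between them. Such matches are common: 29.8% of all 32851 RefSeq promoter windows hold one of the GATA forms and 30.6% one of the E-box forms. The 256 windows of the 234 members with a promoter entry held them in 18.8% and 23.0%, and those of members higher at degrader 1 h (56 windows) in 21.4% and 30.4%. A match is a string of letters, not a bound site, and whether transcription starts at these positions in MEL cells was not examined.

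The members that were lower at 1 h of degrader included a pair of snoRNA host genes and some of the divergent members. The share lowered was no larger among divergent members than among all members. 1700097N02Rik, divergent to the dynein gene Dnah8, had 85.3, 88.7 and 112 normalized counts with degrader, against 179.8, 209 and 163 with DMSO (log2 change -0.95 ± 0.25 (SE), adjusted p = 0.00407). Dnah8 itself was called higher in that comparison, by 0.18 ± 0.03 on the log2 scale (SE). D330050I16Rik, divergent to the splicing factor gene Sart1, changed by -0.80 ± 0.18, 4930539J05Rik, divergent to the ubiquitin-conjugating enzyme gene Ube2d3, by -0.75 ± 0.17, and E330020D12Rik by -0.66 ± 0.20. In the time course 1700097N02Rik was not called at 30 min (log2 change 0.31 ± 0.20 (SE), adjusted p = 0.321) or 2 h (log2 change 0.14 ± 0.23 (SE), adjusted p = 0.782), whereas E330020D12Rik was lower in the libraries labelled degrader 2 h, with 127 and 124, against 375, 382 and 359.9 in DMSO (log2 change -1.56 ± 0.37 (SE), adjusted p = 0.0129). That call was lost without either library of degrader 2 h (adjusted p = 0.101 and 0.108). E330020D12Rik was at 99.994 and 98.2 after 2 h of washout.

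The time course gave calls in both directions as well. At 30 min of degrader, 23 members were higher and 4 lower (all genes 8.69% and 5.17%), and in the libraries labelled degrader 2 h, 15 were higher and 6 lower (all genes 6.77% and 2.63%). At both times the share of members called lay below that of all genes in each direction. The medians were -0.01 for the members at both times, against -0.01 for all genes at 30 min and -0.00 at 2 h. Without the pair of libraries that stand apart, 38 members were higher and 9 lower at 30 min (all genes 12.2% and 8.87%), and the members called at 2 h were 38 higher and 25 lower (all genes 17% and 14.1%; all groups share one estimate of the spread). Without the 5 libraries with conflicting labels, 17 members were called at 30 min. Single libraries moved the 30 min count to 41 (without degrader 30 min library 2), 16 (without DMSO library 2) and 17 (without DMSO library 3), and the 2 h count to 4 and 9 (without degrader 2 h library 1 or 2). G430095P16Rik, which overlaps the transcription factor gene Nfix on the opposite strand, had 274 and 268 at 2 h of degrader, against 138, 126 and 137 in DMSO (log2 change 1.02 ± 0.23 (SE), adjusted p = 0.00894; 0.0900 and 0.0766 without library 1 or 2 of degrader 2 h). The A485 series gave it, after 1 h of degrader, 107, 104 and 124, against 122, 113 and 102 in DMSO, a change of -0.01 ± 0.21 (SE). Whether its response differed between the experiments was not tested, since the tables were normalized separately.

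After 2 h of washout of the degrader, 43 members were higher and 32 lower than in the libraries labelled degrader 2 h, against 8.98% and 8.3% of all genes. The member shares were 15.1% and 11.3%. Among the 79 divergent members, 20 were higher and 8 lower with a median of 0.25, and among the 101 that stand apart 8 were higher and 13 lower with a median of -0.10. Across 283 members the change had a Spearman rho of -0.35 with gene span, that is, shorter genes tended to have the more positive values (a description across genes of the same libraries). 3110083C13Rik, divergent to the mitochondrial calcium gate gene Micu2, had 183 and 209 normalized counts after 2 h of washout, against 64.6 and 72.8 at degrader 2 h (log2 change 1.497 ± 0.32 (SE), adjusted p = 0.00548; 0.0611 without 1 washout library and 0.0514 without library 1 of degrader 2 h). 9130230L23Rik, which stands apart, had 10.5 and 15.6, against 45.2 and 47.1 (log2 change -1.78 ± 0.33 (SE), adjusted p = 0.00243). Of the 8 genes above, E230016M11Rik was at 569 and 569 after washout, below its DMSO libraries (684, 661 and 613), and 2010016I18Rik was at 84.3 and 81.8, at the top of its DMSO libraries (81.8, 75.3 and 81.0). By contrast 2310001H17Rik was at 809.8 and 950.2 and 4933431E20Rik at 809.8 and 874, above every DMSO and degrader 2 h library. These counts rested on 2 libraries in each group. Leaving out 1 of the 4 left 21 to 32 members called, with the lone library of a group then assumed to vary as other groups do, and leaving out the pair that stand apart in other groups gave 147, with 22.2% of all genes higher and 20.8% lower in that fit.

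Inhibition of p300 and CBP by A485 moved many of these genes within 15 min. At 15 min, 50 members were higher and 99 lower (all genes 25.8% and 29.3%), at 30 min 56 higher and 90 lower (all genes 27.1% and 31%), and at 1 h 82 higher and 93 lower (all genes 29.4% and 33.2%). At 15 min, 17.6% of members were higher and 34.9% lower, and the 101 members that stand apart held 42 of the 99 lower calls. C430002N11Rik, an lncRNA gene that stands apart, had 21.9, 29.0 and 29.5 normalized counts at 15 min, 23.0 and 13.6 at 30 min and 17.2, 18.7 and 21.8 at 1 h of A485, against 163, 170.0 and 171 in DMSO. It fell by 2.62 on the log2 scale at 15 min and fell by 3.07 at 1 h (adjusted p = 1.63e-15, limma). Almost the whole fall was thus in place at 15 min.

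E030011O05Rik behaved otherwise in time. This gene lies within Zbtb38, a zinc finger gene, on the same strand, and had 138, 157 and 117 at 15 min, 95.7 and 81.9 at 30 min and 37.3, 12.9 and 29.1 at 1 h of A485, against 202, 238 and 192 in DMSO (log2 change -3.07 ± 0.22 (SE), adjusted p = 4.57e-14 at 1 h). Its level was lower at each later time, but its reads cannot be told apart from those of Zbtb38 at the same place. G430095P16Rik had 8.61, 14.4 and 12.7 at 1 h, against 122, 113 and 102 in DMSO (log2 change -3.16 ± 0.21 (SE), adjusted p = 3.81e-15), while its antisense gene Nfix changed by -0.63 ± 0.05 (SE). D930028M14Rik, antisense to Pou2f2 (the octamer-binding factor Oct2), was at -2.02 ± 0.16 at 15 min, when Pou2f2 was called higher at 0.36 ± 0.08, and both were called lower at 1 h (-2.22 ± 0.16 and -0.68 ± 0.08). Among the genes that went up, B230206L02Rik led at all times, with 134, 132 and 136 at 15 min, 202 and 149 at 30 min and 218, 169.6 and 198 at 1 h of A485, against 53.3, 69.6 and 58.8 in DMSO (log2 change 1.67 ± 0.17 (SE), adjusted p = 1.74e-10 at 1 h). A730090N16Rik (1.07 ± 0.13), D930007P13Rik (0.96 ± 0.16) and A830036E02Rik (0.94 ± 0.18) followed at 1 h.

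Of the 8 genes that the degrader raised in both experiments, 7 were lower with A485 at 15 min. A730036I17Rik had 171, 204 and 212 at 15 min of A485 (-1.60 ± 0.14), 2310001H17Rik 220.1, 224 and 186 (-1.44 ± 0.11), 4933431E20Rik 85.0, 98.4 and 99.996 (-1.33 ± 0.12) and 6530411M01Rik 21.9, 26.1 and 24.03 (-1.80 ± 0.21). E230016M11Rik (-1.22 ± 0.11), A230108P19Rik (-0.95 ± 0.09) and 2010016I18Rik (-0.71 ± 0.22) were lower too, each with an adjusted p of at most 0.00616. At 30 min 2010016I18Rik was no longer called (log2 change -0.36 ± 0.24 (SE), adjusted p = 0.202), and the other 6 were. 1700026D11Rik was not called at any of the 3 times, with log2 change -0.12 ± 0.16 (SE), adjusted p = 0.55 at 15 min. Degrader and A485 share their DMSO libraries here, so the values stand side by side with no test of their relation.

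With A485 present, few noncoding Rik genes were called for a degrader effect. Both agents for 1 h set against A485 for 1 h gave 5 members higher and 5 lower (all genes 4.56% and 2.34%). The 63 members raised by the degrader alone had a median log2 change of 0.46 without A485 and 0.01 with it, and the 17 lowered had -0.58 and 0.02. The first of each pair of medians is fixed by the choice of these members. The difference between the degrader effects, both agents minus A485 minus the effect of degrader alone, was called for 40 members, 9 of them positive and 31 negative, against 4.99% and 6.54% of all genes. All 9 positive ones had been lower with the degrader alone, and 28 of the 31 negative ones higher. The effect was smaller in size with A485 for all 9 positive and for 28 of the 31 negative ones. In the rest it was larger and opposite: 4930581F22Rik went from 0.21 to -0.37 and 1700028I16Rik from 0.28 to -0.54, both called lower with A485. A930037H05Rik went from 0.16 to -0.20 and was not called with A485. The interaction holds the degrader 1 h and DMSO libraries itself, so the direction of one is tied in part to the other. Leaving out single libraries left 31 to 59 members called.

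1700096J18Rik, an lncRNA gene that stands apart on chromosome 11, had 292, 238 and 306 with degrader against 90.4, 122 and 133 with DMSO, but 104, 109.9 and 105 with both agents against 103, 111 and 125 with A485. Its degrader effect was 1.28 ± 0.18 alone and -0.08 ± 0.18 with A485 (difference -1.36 ± 0.25, SE, adjusted p = 0.000295, limma). 1700026D11Rik kept part of its response: it had 119, 122 and 118 with both agents against 71.8, 76.2 and 78.1 with A485, an effect of 0.66 ± 0.16, and its difference was -1.34 ± 0.23 (adjusted p = 0.000103). A730036I17Rik was the exception among the leading genes. It had 303, 385 and 329 with both agents against 115, 194 and 231 with A485, an effect of 0.96 ± 0.14 (SE) beside 1.10 ± 0.14 alone, and its interaction was -0.14 ± 0.19 with an adjusted p of 0.714. That its effect was equal is not shown by a p above the threshold. Of the other 5 members higher in all 3 degrader comparisons with a negative interaction, 4933431E20Rik was at -0.79 ± 0.17, E230016M11Rik at -0.72 ± 0.16, 2310001H17Rik at -0.72 ± 0.15, A230108P19Rik at -0.65 ± 0.13 and 6530411M01Rik at -0.94 ± 0.30. 2010016I18Rik was not called (log2 change -0.84 ± 0.31 (SE), adjusted p = 0.0705). The call of 6530411M01Rik was lost in 8 of 12 fits without 1 library, with adjusted p-values up to 0.118.

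**Figure D3:**
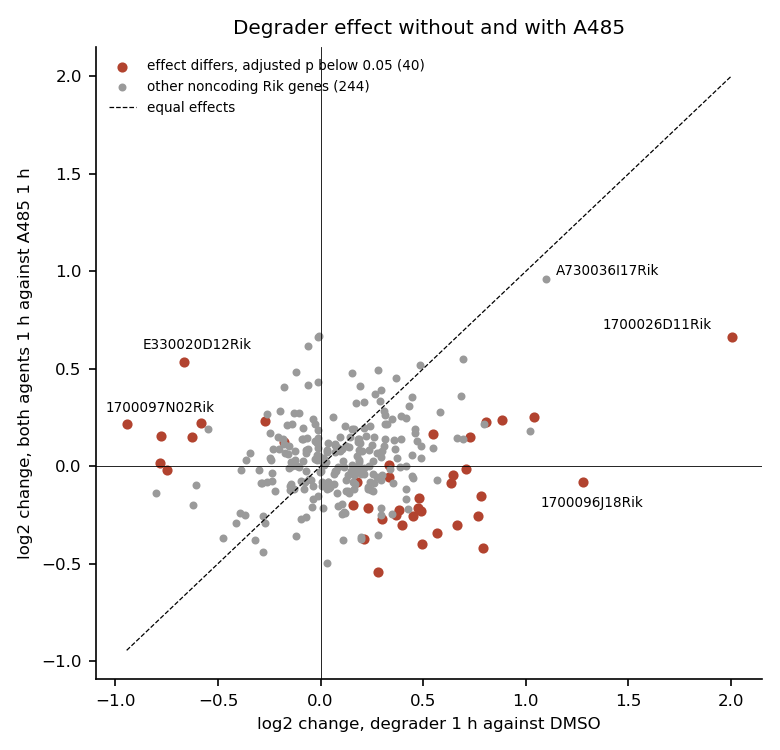
Log2 change of each of the 284 genes at 1 h of degrader against DMSO (horizontal axis) and of both agents against A485 (vertical axis); red points are the 40 genes whose degrader effect differed with A485, grey points the other 244, and the dashed line marks equal effects. Most red points lie off the line with a smaller effect on the vertical axis, and some lie past 0 in the opposite direction. 1700026D11Rik lies at 2.00 and 0.66, and A730036I17Rik, in grey, lies near the line at 1.10 and 0.96.

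Among the members with a negative difference were also E330013P04Rik (-0.97 ± 0.14), A830036E02Rik (-1.02 ± 0.26), E130218I03Rik (-1.22 ± 0.35), F730043M19Rik (-0.58 ± 0.13, divergent to Atxn7l1) and 0610005C13Rik (-0.58 ± 0.17, antisense to the branched-chain aminotransferase gene Bcat2). The calls of E130218I03Rik and 0610005C13Rik were each lost in 4 of 12 fits without 1 library, with adjusted p-values up to 0.0760 and 0.0742. The positive differences included E330020D12Rik (1.20 ± 0.28) and 1700097N02Rik (1.1601 ± 0.35), the second lost in 6 of 12 such fits (up to 0.0836). With A485 both genes were already low: E330020D12Rik had 28.7, 31.6 and 20.0 at 1 h and 1700097N02Rik 40.2, 50.3 and 34.5.

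Some members hold small RNA genes and are called their hosts here. Of the 284, 8 hold 12 microRNA genes in their spans (2 of these microRNA genes are annotated on the strand opposite to the member) and 4 hold 7 snoRNA genes. No strand was available for the snoRNA genes or for the member C430049B03Rik, so these are hosts by position alone. MicroRNAs pair with messenger RNAs through their seed, and snoRNAs of the C/D box kind guide the methylation of ribosomal RNA. A330023F24Rik holds Mir29b-2 and Mir29c, whose 3p strands share the seed of the miR-29 family, a family known to target collagens and the DNA methyltransferases Dnmt3a and Dnmt3b. C430049B03Rik holds Mir322, Mir503 and Mir351, of which miR-322 (the mouse form of miR-424) and miR-503 belong to the miR-16 family by their 5p seeds. The mature sequences of these are given from RefSeq (GRCm38.p6), with bases 2 to 8 in capitals, to show which hosts carry related seeds.
mmu-miR-29b-3p: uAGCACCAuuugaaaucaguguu
mmu-miR-29c-3p: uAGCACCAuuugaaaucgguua
mmu-miR-322-5p: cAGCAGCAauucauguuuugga
mmu-miR-503-5p: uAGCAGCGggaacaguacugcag
mmu-miR-351-5p: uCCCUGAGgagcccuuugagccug
mmu-miR-9-5p: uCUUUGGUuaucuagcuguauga
mmu-miR-101a-3p: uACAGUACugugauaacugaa
The miR-29 pair has the seed AGCACCA in common, while miR-322-5p and miR-503-5p differ in the last base of theirs. The seeds of miR-351, miR-9 (host C130071C03Rik) and miR-101a (host E130102H24Rik) are unlike these.

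A330023F24Rik, the miR-29 host, was high at 15 min with any agent of the A485 series. It had 574, 519 and 524 normalized counts with degrader, 522, 533 and 488 with A485 and 472, 476 and 519 with both, against 226, 259 and 277 in DMSO. The degrader change was 1.09 ± 0.09 at 15 min, 0.72 ± 0.09 at 30 min and 0.48 ± 0.09 at 1 h (SE). A485 alone against DMSO gave 1.02 ± 0.09 at 15 min and -0.23 ± 0.09 at 1 h. The time course was not tested at 15 min, and neither 30 min nor 2 h was called there. It had 699, 484 and 604 at 15 min, 592, 515 and 623 at 30 min and 573 and 597 at 2 h of degrader, against 574, 553 and 606 in DMSO. After 2 h of washout it was lower, with 367 and 414, against 573 and 597 at degrader 2 h (log2 change -0.58 ± 0.14 (SE), adjusted p = 0.0126).

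The snoRNA hosts 2410006H16Rik (Snord49a, Snord49b and Snord65) and 1110038B12Rik (Snord52 and a second annotated snoRNA) were lower at 1 h of degrader and at 1 h of LBH589. 2410006H16Rik had 765, 738 and 820.5 at 1 h of degrader, against 1451, 1312 and 1224 in DMSO (log2 change -0.78 ± 0.12 (SE), adjusted p = 3.03e-06), and 1101, 1134 and 1167 at 1 h of LBH589, against 1707, 1846 and 2252 in DMSO (log2 change -0.76 ± 0.07 (SE), adjusted p = 1.81e-10). 1110038B12Rik had 312, 302 and 336 at 1 h of degrader, against 617, 547 and 481 in DMSO (log2 change -0.78 ± 0.10 (SE), adjusted p = 1.02e-07), and 579, 555 and 653 at 1 h of LBH589, against 931, 934 and 1058 in DMSO (log2 change -0.71 ± 0.07 (SE), adjusted p = 1.11e-10). For both genes the groups did not overlap in either experiment. With both agents for 1 h they had means of 1029 ± 93.8 and 468 ± 40.2, against 924 ± 54.1 and 463 ± 44.4 with A485 (SD, n = 3 each), and their interactions were 0.93 ± 0.16 and 0.80 ± 0.14 (adjusted p = 0.00017 and 0.000125). In the time course neither was called at 30 min or 2 h (0.04 ± 0.18 and 0.20 ± 0.20 for 2410006H16Rik, 0.07 ± 0.16 and 0.15 ± 0.18 for 1110038B12Rik). The third host, 2700038G22Rik (Snord93), was lower with LBH589 at 1 h (-0.60 ± 0.06) and higher with A485 at 1 h (0.30 ± 0.09), and the fourth, 1700120C14Rik, was higher in both (0.21 ± 0.09 and 0.88 ± 0.08). Unlike the first pair of hosts, 1700120C14Rik was called higher at 1 h of degrader alone (log2 change 0.37). Its interaction was negative (-0.62 ± 0.12 (SE), adjusted p = 0.000466, limma). That of 2700038G22Rik was not called (0.26 ± 0.13 (SE), adjusted p = 0.197, limma).

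Among 46 named long noncoding RNAs fixed as a list (Malat1, Gas5, the Snhg snoRNA hosts and others), 33 were tested in the A485 series. At 1 h of degrader 3 were higher and 15 lower with a median of -0.14, beside 63 and 17 of 284 and a median of 0.12 for the Rik genes. At 1 h of LBH589 4 were higher and 22 lower with a median of -0.47, beside 100 and 93 and a median of 0.02. The 682 other noncoding symbols over the same minimum mean had 105 higher and 65 lower at 1 h of degrader and a median of 0.03. Over all genes tested, 14.7% were higher and 10.9% lower at 1 h of degrader, and 32.4% and 34.6% at 1 h of LBH589. The shares of the 682 lay near those of all genes. These counts were not tested against each other.

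**Figure D4:**
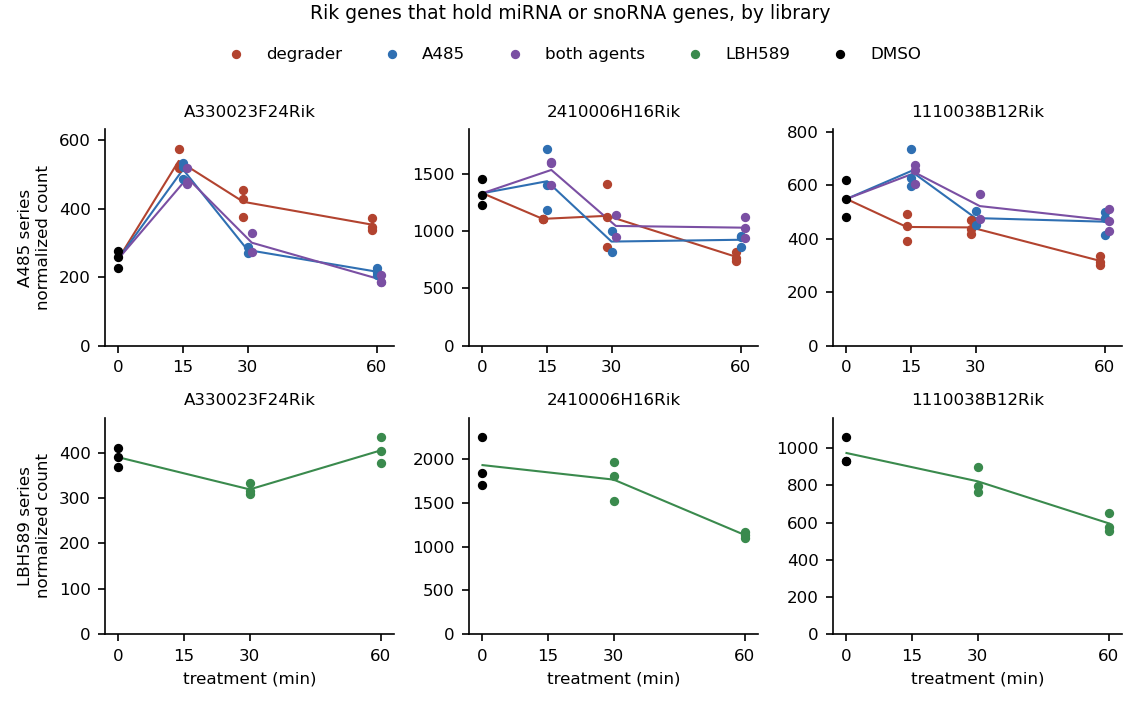
Normalized counts of A330023F24Rik (miR-29 host), 2410006H16Rik and 1110038B12Rik (snoRNA hosts) in each library by minutes of treatment, in the A485 series (top: degrader red, A485 blue, both purple, DMSO black at 0 min) and the LBH589 series (bottom: LBH589 green, DMSO black), with lines through group means. A330023F24Rik peaks at 15 min in all 3 treated arms of the A485 series (472 to 574 against 226 to 277 in DMSO), and the snoRNA hosts are lowest at 60 min of degrader and of LBH589.

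A further 3 microRNA hosts were lower with A485 and were not called with the degrader in the same series. C430049B03Rik had 67.2, 58.4 and 73.6 at 15 min of A485, against 153, 151 and 126 in DMSO (log2 change -1.10 ± 0.17 (SE), adjusted p = 1.93e-06), and was also lower at 1 h of LBH589 (-0.57 ± 0.13). C130071C03Rik, the miR-9-2 host, was lower at 15 min of A485 (-0.85 ± 0.11) and at 30 min of degrader in the time course (-0.66 ± 0.14), but higher at 1 h of LBH589 (0.37 ± 0.08). E130102H24Rik, the miR-101a host, was lower at 1 h of A485 (-0.56 ± 0.16) and higher at 1 h of LBH589 (0.65 ± 0.09). The list of 8 hosts is small, and its counts at 1 h of A485 were 1 higher and 4 lower, beside 29.4% and 33.2% of all genes.

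Divergent members, some of which overlap their partner at the start, often moved in the same direction as the partner under A485. At 1 h of A485, 47 of 79 divergent members were called, 31 of them together with their partner, and 26 of those 31 in the same direction. The log2 changes of member and partner had Pearson r = 0.61 over the 79 pairs. At 1 h of LBH589, 50 members were called, 42 of them with their partner and 30 of those in the same direction (r = 0.45). At 1 h of degrader 16 were called, 7 with their partner, 4 in the same direction (r = 0.21). There, 12 divergent members were higher and 4 lower with a median of 0.16 (15.2% and 5.06%, against 14.7% and 10.9% of all genes), while their 79 partners were 5 higher and 15 lower with a median of -0.04. Member and partner share libraries and, where strand was not used, may share reads near the start, so these correlations are descriptions. Of the 48 antisense members, 16 were higher and 1 lower at 1 h of degrader with a median of 0.18 (33.3% and 2.08%); among 46 pairs with the overlapped gene tested, 4 had both called and r was 0.06. Over 283 members the degrader change at 1 h had a Spearman rho of 0.21 with gene span.

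**Figure D5:**
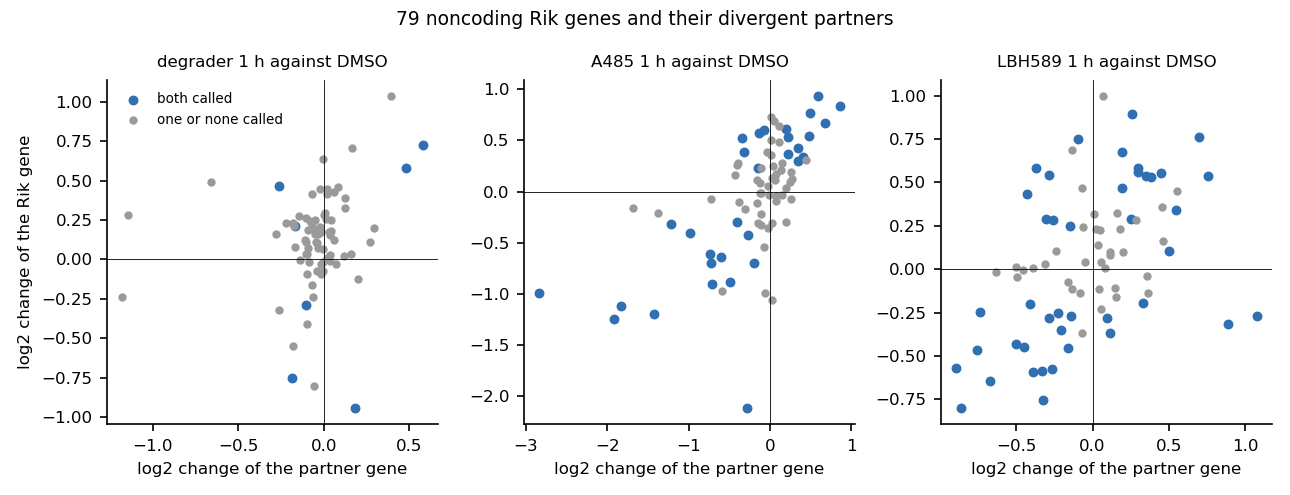
Log2 change of 79 divergent noncoding Rik genes (vertical axis) against that of their partner genes (horizontal axis) at 1 h of degrader, A485 and LBH589, each against DMSO; blue points are pairs with both genes called and grey points the others. The points follow a rising line at A485 (r = 0.61) and scatter around 0 at the degrader (r = 0.21).

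Histone deacetylase inhibition moved the members in both directions, in shares near those of all genes. LBH589 for 30 min gave 61 members higher and 53 lower (all genes 17.8% and 21.9%), and LBH589 for 1 h 100 higher and 93 lower (all genes 32.4% and 34.6%), with medians of -0.01 and 0.02. A830036E02Rik, which stands apart, had 43.5, 47.9 and 32.8 normalized counts at 30 min and 56.8, 54.4 and 55.6 at 1 h, against 6.76, 15.97 and 13.6 in DMSO (log2 change 2.19 ± 0.24 (SE), adjusted p = 4.41e-09 at 1 h). Its level is low, so its fold change is understated on this scale. E330020D12Rik, which was lower with the degrader and with A485, had 182, 194 and 200.3 at 1 h of LBH589, against 66.5, 88.3 and 90.9 in DMSO (log2 change 1.23 ± 0.12 (SE), adjusted p = 3.29e-10). 1500026H17Rik (1.12 ± 0.13), 1110046J04Rik (1.07 ± 0.09, antisense to Serpinb6a), 4933424L21Rik (1.02 ± 0.11, antisense to Galnt10) and 2900052L18Rik (1.02 ± 0.12) followed.

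4930507D05Rik, antisense to the mitochondrial RNA helicase gene Supv3l1, fell the furthest with LBH589. It had 337, 325 and 271 at 30 min and 173, 179 and 171 at 1 h, against 449, 531 and 534 in DMSO (log2 change -1.52 ± 0.09 (SE), adjusted p = 4.77e-15 at 1 h), and Supv3l1 fell less, at -0.51 ± 0.04 (SE). 1700113A16Rik, antisense to the muscle and blood transcription factor gene Mef2d, was at -1.23 ± 0.14, G430095P16Rik at -1.09 ± 0.10, 2900005J15Rik, antisense to Prkag2, at -0.95 ± 0.14, and D030028A08Rik, antisense to Sp2, at -0.85 ± 0.04. Among the 8 genes raised by the degrader, LBH589 for 1 h lowered 2310001H17Rik to 476, 483 and 573, against 881, 875 and 964 in DMSO (log2 change -0.83 ± 0.07 (SE), adjusted p = 3.68e-12), and A730036I17Rik to 728, 778 and 729, against 957, 949 and 923 (log2 change -0.34 ± 0.05 (SE), adjusted p = 7.65e-07). It raised E230016M11Rik, which had 840.4, 849.6 and 887, against 524, 557 and 516 in DMSO (log2 change 0.69 ± 0.05 (SE), adjusted p = 2.58e-12). 1700026D11Rik was higher as well (0.37 ± 0.11), A230108P19Rik was lower (-0.19 ± 0.06), and the other 3 were not called, so the 8 did not share 1 direction under LBH589.

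In the cells with LBH589 and a washed-out degrader, 1 h of washout against 30 min gave 32 members higher and 19 lower of 283 (all genes 13.2% and 10.1%), with a median of 0.14 for the members and -0.00 for all genes. C430002N11Rik had 82.0, 60.8 and 103 at 1 h, against 36.7, 33.4 and 22.2 at 30 min (log2 change 1.38 ± 0.28 (SE), adjusted p = 0.00884). 9330133O14Rik (1.68 ± 0.36), 4933424L21Rik (1.61 ± 0.41), B230354K17Rik (1.49 ± 0.26, divergent to the splicing gene Cdc5l) and D030047H15Rik (1.42 ± 0.23, divergent to Leng8) were higher as well. The lower members included 4933402J15Rik (-1.29 ± 0.34), 4933417D19Rik (-1.23 ± 0.20) and A730090N16Rik (-1.03 ± 0.26). Library 3 of 1 h washout correlated least with its group (0.0432). Without it 84 members were called, and without library 1, 2 or 3 of 30 min washout 30, 13 and 14. The calls of 9330133O14Rik, 4933424L21Rik, 4933402J15Rik and A730090N16Rik were lost without library 2 or without library 3 of 30 min washout, with adjusted p-values of 0.0527 to 0.109.

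For the 3 members with the largest degrader change at 1 h, the genes of the A485 series whose log2 group means ran most alike over the 10 groups were Cdkl1, Mindy4 and Tspan15 for 1700026D11Rik (Pearson r of 0.964, 0.960 and 0.955), Slc35e2, Gm12522 and Ms4a3 for 1700096J18Rik (0.959, 0.958 and 0.957), and Iffo1, Cd24a and Popdc2 for A730036I17Rik (0.997, 0.996 and 0.996). They were picked as the highest of all genes in the table, and the groups share the same libraries, so the values describe likeness only.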

How the data were processed

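PRO-seq was measured in 65 libraries of 23 groups in 4 experiments. The authors deposited 1 gene table per experiment whose unit is a normalized signal: read counts per transcript divided by DESeq2 size factors (25857 transcripts of 15020 symbols). Per the submitters' processing notes, Bowtie2 2.2.2, SAMtools 1.16.1, featureCounts 2.0.1 and DESeq2 1.46.0 were among the tools and mm39 and dm3 among the builds. Which step each served, and whether strand was used in counting, is not given in the sources used here. Scaling by size factors hides a change shared by most genes, and each table was normalized separately, so tests were made within a table. Dividing each column by its smallest step gave whole reads for 100% of values (tolerance 0.1). In units of 1000000 reads, a library held 7.45 to 62.0 (A485 series), 16.2 to 62.4 (time course), 28.1 to 44.8 (LBH589 series) or 13.5 to 29.1 (LBH589 washout series).

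The highest-mean transcript per symbol was kept. limma 3.58.1 (R 4.3.3; lmFit, eBayes with trend) was fitted on log2(value + 1) over genes with a mean of at least 10, using every group of the table. P-values were adjusted by Benjamini-Hochberg, with a threshold of 0.05. edgeR 4.0.16 (quasi-likelihood, TMM, recovered reads) was an alternative, beside a pseudocount of 10, no filter, all transcripts, members with a mean of at least 100, members with no coding transcript in the tables (chosen after seeing the data), single libraries left out, libraries that stand apart or have conflicting labels left out, and the library number as a block. The fit was tested on simulated data. Named members are the 6 with the largest called change in each direction of a comparison whose libraries do not overlap, the 10 with the highest mean, the neighbours of the minimum, members called the same way in 3 degrader comparisons, and small RNA hosts; others shown beside them were chosen after their values were seen. The members and lists were chosen with earlier results of these data known. In the gene tables, 3 columns of per-sample values were not used, since their samples could not be settled or they were empty, and 3 columns were used by group only. The regulatory site tables were not analysed here.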

Additional observations from a re-analysis of the deposited data

Results flagged for a closer look

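The effect of 1 h of degrader differed between cells with and without A485 for 40 of the 284 noncoding Rik genes, by limma's interaction term with Benjamini-Hochberg adjustment over all genes tested. Values below are the degrader effect with A485 minus the effect without it, on the log2 scale. The largest positive differences were those of E330020D12Rik (1.20), 1700097N02Rik (1.1601), 2410006H16Rik (0.93), 4933417D19Rik (0.81), 1110038B12Rik (0.80) and C230035I16Rik (0.78), all of them lower with the degrader alone. The largest negative differences were those of 1700096J18Rik (-1.36), 1700026D11Rik (-1.34), E130218I03Rik (-1.22), A830036E02Rik (-1.02), E330013P04Rik (-0.97) and 6530411M01Rik (-0.94). No group held the 4 libraries needed to test single libraries as outliers.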

How the results depend on the processing

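No direction reversed. The counts of members called stayed within 1.5 times under edgeR, a pseudocount of 10, no filter and all transcripts. They also did so with a member minimum of 100 and, chosen after seeing the data, without the 16 members that also have a coding transcript. The settings of the previous sentence keep the main fit and only drop members, so they do not test the calls. Without the libraries that stand apart, 47 members were called at degrader 30 min, 63 at degrader 2 h and 147 at 2 h of washout in the time course, and without the libraries with conflicting labels 17 at degrader 30 min; the cause was not tested. With 1 library left out, the counts ran from 16 to 41 at degrader 30 min, 4 to 18 at degrader 2 h and 21 to 32 at washout 2 h in the time course. In the A485 series they ran from 16 to 22 (degrader 15 min), 22 to 35 (30 min), 52 to 71 (1 h), 125 to 140 (A485 15 min), 114 to 133 (30 min), 158 to 174 (1 h) and 31 to 59 (interaction). They ran from 93 to 104 and 175 to 189 at 30 min and 1 h of LBH589, and from 13 to 84 in its washout. Fewer libraries enter each such fit. Library numbers did not pair the samples (correlations of same-numbered deviations from -0.13 to 0.06); with the replicate block, 29 and 17 members were called at degrader 30 min and 2 h of the time course, 24, 40 and 80 at degrader 15 min, 30 min and 1 h and 147 at A485 15 min of the A485 series, and 53 in the LBH589 washout. Of 1956 values of named members under an alternative, 1760 kept their call and 196 lost it, 176 of these with 1 library left out. Members limited to those overlapping no other gene, and regulatory sites at member starts, were not run, for want of coordinates in the build of the files.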

Other observations

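For the 8 members raised in all 3 degrader comparisons, the nearest tested gene on either side was looked up after the values of the 8 had been seen. Genes that overlap a member, such as Gadd45a, Dennd2d and Gstm5 above, were left out. Of these 16 flanking genes, 2 were higher and 2 lower at 1 h of degrader in the A485 series. These shares lay near those of all genes tested, 14.7% higher and 10.9% lower. Cds2, a CDP-diacylglycerol synthase gene beside 1700026D11Rik, changed by 0.40 ± 0.05 (SE) there, and Cept1, a choline/ethanolamine phosphotransferase gene beside 2010016I18Rik, by 0.21 ± 0.07. Gng12, a G protein subunit gene beside E230016M11Rik, changed by -0.16 ± 0.04, and Cd69, a lymphocyte activation antigen gene beside 2310001H17Rik, by -0.60 ± 0.20. In the time course, Cds2 changed by 0.27 ± 0.07 at 30 min and 0.34 ± 0.08 at 2 h of degrader, and Qk, an RNA-binding protein gene beside 6530411M01Rik, by 0.21 ± 0.07 at 30 min. There, Slc20a1, a phosphate transporter gene beside A730036I17Rik, changed by 0.43 ± 0.08 at 30 min and 0.46 ± 0.09 at 2 h of degrader, and was at 0.09 ± 0.07 (adjusted p = 0.386, limma) at 1 h in the A485 series. Usp6nl, a Rab GTPase-activating protein gene beside A230108P19Rik, changed by 0.42 ± 0.06 at 30 min and 0.43 ± 0.07 at 2 h in the time course, and was at 0.08 ± 0.04 (adjusted p = 0.11, limma) at 1 h in the A485 series.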
